A study of Mus musculus with 20 samples.

Results

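The genes described here are 33 genes known for their activity in the endothelium of blood vessels, measured in whole mouse limbs with and without the transcription factor LMX1B. Members were taken as the probe sets whose gene symbol is one of the 33 names, with the probe set of the highest mean used where a gene had several. All 33 were measured, among 19936 genes in all, each by 1 probe set that names no other gene. Notch4 and Ramp2 also stand on 6 and 1 probe sets that name several genes, which were not used. Of these genes, 4 (Aplnr, Tek, Emcn and Clec14a) were called lower in the knockout limbs (12.1%, against 1.57% of all genes). None of the 33 was called higher, against 0.466% of all genes. The members were chosen with earlier results of these data known, so these shares are a description and no test of the set. None of the 4 passed on the arrays of male embryos alone, and the call of Clec14a held in 4 of 20 fits that left out 1 array.

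The limbs came from 129Sv mouse embryos at embryonic day 13.5 that were either wild type or homozygous for a loss of Lmx1b (Lmx1b -/-). RNA of single forelimbs or hindlimbs was hybridised to Affymetrix GeneChip 1.0 ST arrays, giving 20 arrays in 4 groups of 5, 1 group for each genotype in each limb type. The comparisons ask which genes depend on LMX1B in the developing limb. Whether each limb came from a different embryo is not stated in the labels, although they name biological replicates, and the p-values therefore cover the variation among these 20 limbs only. The knockout is of the whole embryo, as far as the labels tell, and each array holds every tissue of a limb.

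Endothelial cells line the blood vessels, and they are held together by VE-cadherin (Cdh5), PECAM1 and claudin 5 at their junctions. Vascular endothelial growth factor (VEGF) acts through the receptor Kdr to make vessels sprout, the angiopoietins act through the receptor Tek (also called TIE2) to control vessel remodelling and stability, and Notch signalling through Dll4 separates tip from stalk cells and arteries from veins. Transcription factors of the ETS, SOXF and TAL1 families switch on many of these genes. In the limb bud a vascular network is present before the cartilage and muscle form, and it is remodelled as they grow.

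The arrays were on a common scale, with median intensities between 28.6 and 31.8. Lmx1b itself was lower on 10 of 10 knockout arrays than on any wild-type array of the same limb type and changed by -0.55 (SE 0.0487) on the log2 scale. Whether its probe set lies in the deleted part of the gene is not given in the sources used here. Tbx5, a forelimb gene, lay between 8.26 and 8.93 log2 in the 10 forelimbs and between 4.38 and 5.09 in the 10 hindlimbs, so the limb types matched their labels. By the level of 3 Y-linked genes and Xist, 13 arrays came from male and 7 from female embryos, and the sexes were not balanced: all 5 wild-type forelimbs were male, whereas replicates 2, 3 and 4 of the knockout forelimbs, 7 and 8 of the wild-type hindlimbs and 8 and 10 of the knockout hindlimbs were female. Of the defining endothelial markers, Pecam1 lay between 6.87 and 7.43 log2 and Cdh5 between 6.92 and 7.69 log2 over all 20 arrays. The median gene on the arrays had a mean of 5.44 log2, and 7 of the 33 had means below it (Angpt2, Sox17, Gpihbp1, Nos3, Tal1, Dll4 and Notch4), although probe sets differ in brightness and no detection call was used.

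The question of the main comparison was which vessel genes depended on Lmx1b over both limb types. Of the 33 genes, 4 fell (12.1%) and 0 rose, where 1.57% of all genes tested fell and 0.466% rose at the same threshold, a Benjamini-Hochberg adjusted p under 0.05 in limma. The 4 that fell were the apelin receptor Aplnr, the angiopoietin receptor Tek, the sialomucin Emcn and the lectin-like glycoprotein Clec14a. All are proteins of the cell surface, as are many of the 33 genes. The mean was lower in the knockouts for 27 of the 33 genes, against 51.1% of all genes, and lower in both limb types for 22, against 31.9% of all genes. Since the 33 were chosen with earlier results of these data known, such shares describe the genes and do not test them as a set. Means over both limb types were also lower for 7 of 8 cartilage, 7 of 8 epidermis and 8 of 9 erythroid markers. Schwann cell and nerve markers gave 6 of 6, pericyte and smooth muscle markers 6 of 12 and megakaryocyte and platelet markers 3 of 5. The median change of the 33 was -0.08 log2 and that of all genes -0.00. At an unadjusted p under 0.05, 10 of the 33 were lower, against 8.36% of all genes, and 0 were higher, against 6.33%. In whole limbs, fewer endothelial cells and less RNA per endothelial cell cannot be told apart.

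**Figure D1:**
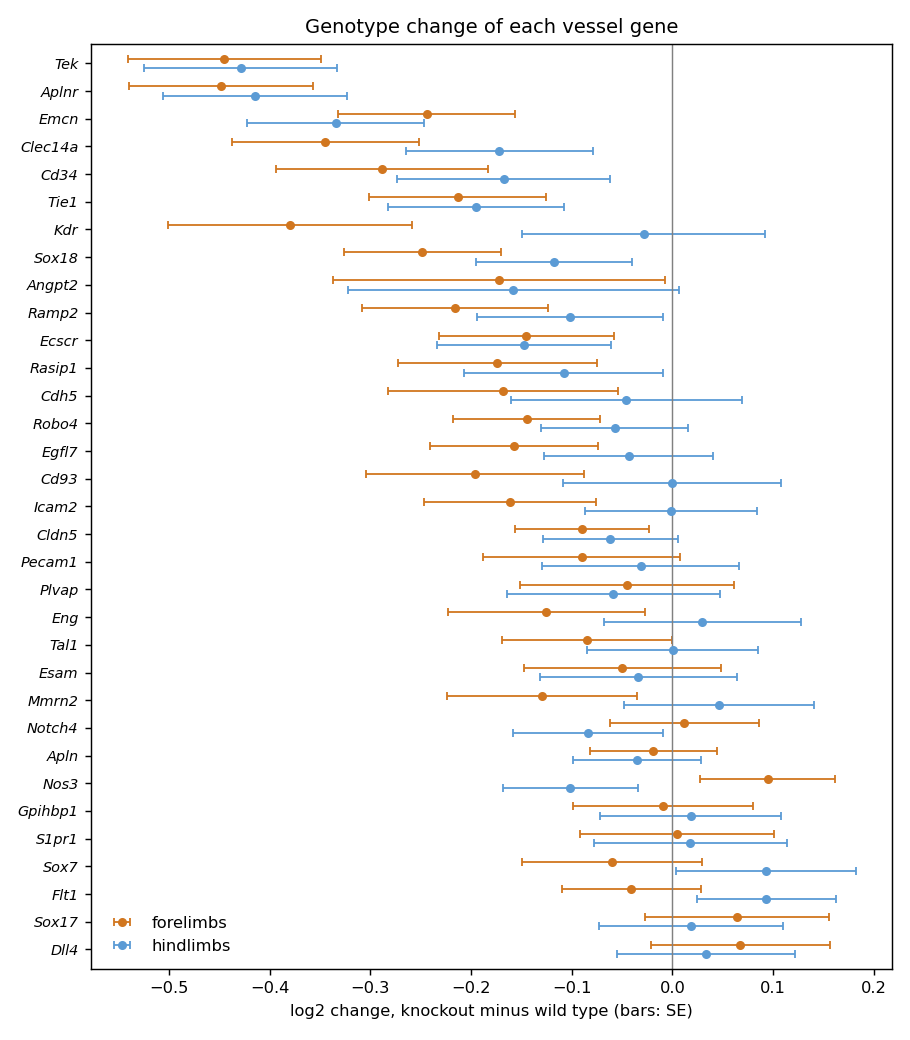
Log2 change of each of the 33 vessel genes (knockout minus wild type, horizontal axis) in forelimbs (orange) and hindlimbs (blue), with bars of 1 SE from limma, ordered by the mean of both. Tek and Aplnr lie farthest to the left in both limb types, between -0.41 and -0.45, while most other genes lie within 0.2 of 0.

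Aplnr encodes the receptor for apelin on sprouting and venous endothelium. Its log2 levels were 7.48, 7.57, 7.38, 7.51 and 7.40 in wild-type forelimbs and 7.15, 6.90, 7.25, 6.95 and 6.86 in knockout forelimbs. They were 7.07, 7.36, 7.22, 7.15 and 7.27 in wild-type hindlimbs and 6.44, 6.96, 6.86, 6.90 and 6.84 in knockout hindlimbs. Every knockout array lay below every wild-type array of its limb type, and the lowest value of all was knockout hindlimb replicate 6. Over both limb types Aplnr fell by 0.43 log2 (SE 0.0648, adjusted p = 0.000439), which is 1.35-fold. It was the only one of the 33 genes whose genotypes did not overlap in either limb type, a pattern held by 0.271% of all genes.

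Tek encodes TIE2, the receptor through which angiopoietins act. Its log2 levels were 7.005, 7.28, 7.22, 7.24 and 7.35 in wild-type forelimbs and 6.83, 6.59, 6.96, 6.79 and 6.70 in knockout forelimbs, with no overlap. They were 7.01, 7.17, 7.16, 6.76 and 7.13 in wild-type hindlimbs and 6.39, 6.87, 6.71, 6.62 and 6.50 in knockout hindlimbs. In the hindlimbs 1 wild-type array, replicate 9, lay among the knockouts, and the other 4 lay above all of them. Tek fell by 0.44 log2 over both limb types (SE 0.0678, adjusted p = 0.000642), also a 1.35-fold difference.

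Emcn encodes endomucin, a sialomucin of capillary and venous endothelium. It measured 7.20, 7.16, 7.46, 7.39 and 7.33 log2 in wild-type forelimbs and 7.07, 6.88, 7.30, 7.06 and 7.01 in knockout forelimbs. It measured 7.12, 7.32, 7.36, 6.99 and 7.34 log2 in wild-type hindlimbs and 6.79, 7.09, 6.95, 6.79 and 6.85 in knockout hindlimbs. Knockout forelimb replicate 3 and knockout hindlimb replicate 7 reached into the wild-type range and the other 8 knockout arrays lay below it. The fall over both limb types was 0.29 log2 (a change of -0.29, SE 0.0621, adjusted p = 0.0136), or 1.22-fold.

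Clec14a encodes a C-type lectin domain glycoprotein of the endothelial surface. Its log2 levels were 6.83, 6.74, 6.65, 6.61 and 6.34 in wild-type forelimbs and 6.30, 6.18, 6.24, 6.41 and 6.31 in knockout forelimbs. They were 6.57, 6.45, 6.38, 6.17 and 6.38 in wild-type hindlimbs and 6.16, 6.48, 6.25, 6.20 and 5.99 in knockout hindlimbs. The groups overlapped in both limb types, and 6 of 10 knockout arrays lay below the wild-type range. The change was -0.26 (SE 0.0657, adjusted p = 0.0432), close to the threshold. The call was kept in only 4 of 20 fits that each left out 1 array (those without replicate 5 of the wild-type forelimbs, 9 of the wild-type hindlimbs, 4 of the knockout forelimbs or 7 of the knockout hindlimbs), with adjusted p-values from 0.0129 to 0.0869 over the 20.

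**Figure D2:**
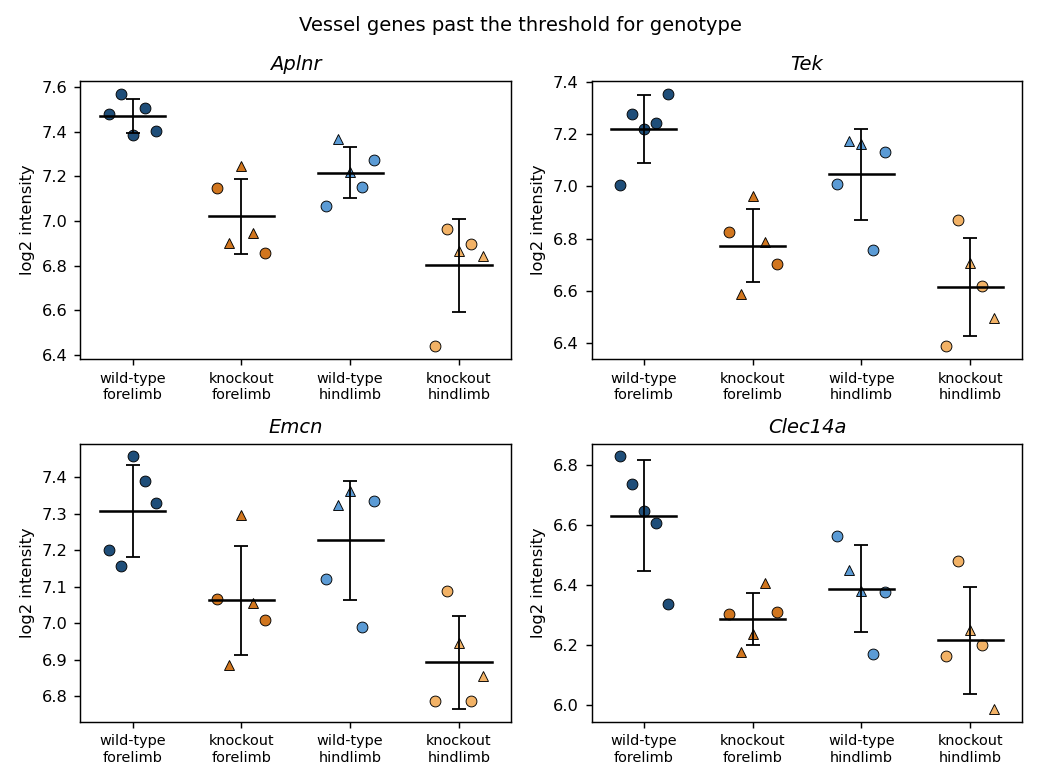
Log2 intensity of Aplnr, Tek, Emcn and Clec14a on each of the 20 arrays, in 4 groups of 5 (circles male, triangles female embryos; lines and bars are the group mean and SD). The vertical axes do not start at 0 and differ between panels. The knockout arrays of Aplnr lie below all wild-type arrays of the same limb type, while those of Clec14a overlap.

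The sex of the embryos differed between the groups, so the 4 genes were also compared on the 13 male arrays, of which 2 were knockout forelimbs. The change was then -0.43 for Aplnr (adjusted p = 0.0571), -0.40 for Tek (adjusted p = 0.111), -0.27 for Emcn (adjusted p = 0.329) and -0.21 for Clec14a (adjusted p = 0.611), so none of the 4 passed the threshold in limma on these fewer arrays, while all kept their direction. In a fit over all 20 arrays that also held the mean of the Y-linked genes, Aplnr, Tek and Emcn passed and Clec14a did not (adjusted p = 0.0964).

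The promoters of the 3 genes that fell and have an entry in the RefSeq promoter table (build GRCm38.p6) are printed to show the sequence at their start sites, from 250 bases before to 50 after. Capitals mark the ETS core CAGGAA or its complement TTCCTG, the kind of site through which ETS factors bind endothelial genes. Tek lies on the plus strand at chr4:94739039-94739338, Emcn on the plus strand at chr3:137340828-137341127 and Clec14a on the minus strand at chr12:58269209-58269508, and each sequence is written 5′ to 3′ on the gene's strand.
Tek: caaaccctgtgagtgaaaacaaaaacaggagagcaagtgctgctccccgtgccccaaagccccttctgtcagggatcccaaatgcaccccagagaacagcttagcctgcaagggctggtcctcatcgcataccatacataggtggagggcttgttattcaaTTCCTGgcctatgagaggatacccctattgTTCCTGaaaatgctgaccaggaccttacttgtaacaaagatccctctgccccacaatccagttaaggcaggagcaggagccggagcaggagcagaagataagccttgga
Emcn: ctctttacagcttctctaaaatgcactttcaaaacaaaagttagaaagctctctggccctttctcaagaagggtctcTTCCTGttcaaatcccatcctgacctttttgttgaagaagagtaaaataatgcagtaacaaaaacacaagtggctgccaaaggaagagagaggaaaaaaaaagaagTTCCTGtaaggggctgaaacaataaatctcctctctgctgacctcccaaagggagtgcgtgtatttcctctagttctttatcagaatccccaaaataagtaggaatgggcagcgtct
Clec14a: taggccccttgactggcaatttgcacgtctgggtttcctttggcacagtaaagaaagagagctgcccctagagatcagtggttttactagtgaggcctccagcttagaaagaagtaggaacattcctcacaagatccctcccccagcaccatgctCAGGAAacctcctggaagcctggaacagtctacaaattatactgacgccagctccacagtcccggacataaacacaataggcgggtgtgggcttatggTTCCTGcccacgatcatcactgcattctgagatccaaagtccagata
Tek held the ETS letters at -89 and -59 relative to its start, Emcn at -173 and -67, and Clec14a at -95 and 3. In the table, 16 of the 33 genes matched, with 19 promoters. CAGGAA, searched on both strands, was found in 12 of these 19 promoters (63.2%) and in 30.6% of all 32851 promoters. A further ETS core, CCGGAA, was found in 1 of 19 (5.26%, against 14.9% of all), and TAATTA, a core bound by homeodomain factors such as LMX1B, in 0 of 19 (against 5.29% of all). CAGGAA and CCGGAA share the letters GGAA, positions give the leftmost letter of a match on the gene's strand, and a match here is a description of sequence only.

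Among the 7 junction and adhesion genes, Emcn fell and the other 6 had negative changes that did not pass. The stem and endothelial cell sialomucin Cd34 differed by -0.23 (SE 0.0745, adjusted p = 0.130). Cdh5, the cadherin of the junctions, differed by -0.11 (95% interval -0.28 to 0.06) and the adhesion molecule Pecam1 by -0.06 (95% interval -0.20 to 0.08). Both intervals lie above the change measured for Tek. Claudin 5 (Cldn5), Icam2 and Esam differed by -0.08, -0.08 and -0.04.

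Of the 5 VEGF and angiopoietin genes, Tek alone passed. Its relative Tie1, a receptor that pairs with it, differed by -0.20 (95% interval -0.33 to -0.08) without passing and was below the wild-type range on 7 of 10 knockout arrays. The main VEGF receptor Kdr differed by -0.20 (SE 0.0855, adjusted p = 0.258), whereas the decoy receptor Flt1 differed by 0.03 (95% interval -0.07 to 0.13). The ligand Angpt2 varied most between arrays of a group (SD within groups 0.292) and differed by -0.16 (95% interval -0.41 to 0.08).

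The apelin, sphingosine phosphate and adrenomedullin genes number 4, of which Aplnr fell. Its ligand Apln differed by -0.03 (95% interval -0.12 to 0.07), an interval that excludes a change of the size seen in Aplnr. The adrenomedullin co-receptor Ramp2 differed by -0.16 (adjusted p = 0.250) and the sphingosine phosphate receptor S1pr1 by 0.01 (95% interval -0.13 to 0.15).

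In limma 0 of the 2 Notch genes and 0 of the 4 transcription factors passed, with 0 and 1 (Sox18) at an unadjusted p under 0.05. The Notch ligand Dll4 differed by 0.05 (95% interval -0.08 to 0.18) and the receptor Notch4 by -0.04 (95% interval -0.14 to 0.07). Of the SOXF factors, Sox18 differed by -0.18 (SE 0.0551, adjusted p = 0.0964), with 6 of 10 knockout arrays below the wild-type range, while Sox7 differed by 0.02 and Sox17 by 0.04. Tal1, a factor of blood and endothelial precursors, differed by -0.04 (95% interval -0.17 to 0.08).

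Of the 9 other surface and secreted proteins, Clec14a fell and 7 of the remaining 8 had negative changes that did not pass. The cell surface protein Ecscr differed by -0.15 (adjusted p = 0.259), the guidance receptor Robo4 by -0.10, the secreted Egfl7 by -0.10 and the Clec14a relative Cd93 by -0.10. The TGF-beta co-receptor Eng, the diaphragm protein Plvap and the matrix protein Mmrn2 differed by -0.05, -0.05 and -0.04. Gpihbp1, which holds lipoprotein lipase on capillaries, differed by 0.00 (95% interval -0.13 to 0.14). Of the proteins inside the cell, Rasip1, needed for vessel lumens, differed by -0.14 (adjusted p = 0.358) and the nitric oxide synthase Nos3 by -0.00 (95% interval -0.10 to 0.10).

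Averaged over the 33 genes, the arrays read 6.16, 6.31, 6.37, 6.40 and 6.37 log2 in wild-type forelimbs and 6.21, 6.03, 6.33, 6.18 and 6.16 in knockout forelimbs. They read 6.16, 6.21, 6.26, 6.06 and 6.30 in wild-type hindlimbs and 6.12, 6.23, 6.16, 6.04 and 6.04 in knockout hindlimbs. The genotypes overlapped in both limb types. The group means were 6.32 ± 0.0963 and 6.18 ± 0.107 in wild-type and knockout forelimbs and 6.20 ± 0.0948 and 6.12 ± 0.0814 in hindlimbs (SD, n = 5). The difference over both limb types, -0.11, compares with a spread within groups of 0.0953.

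**Figure D3:**
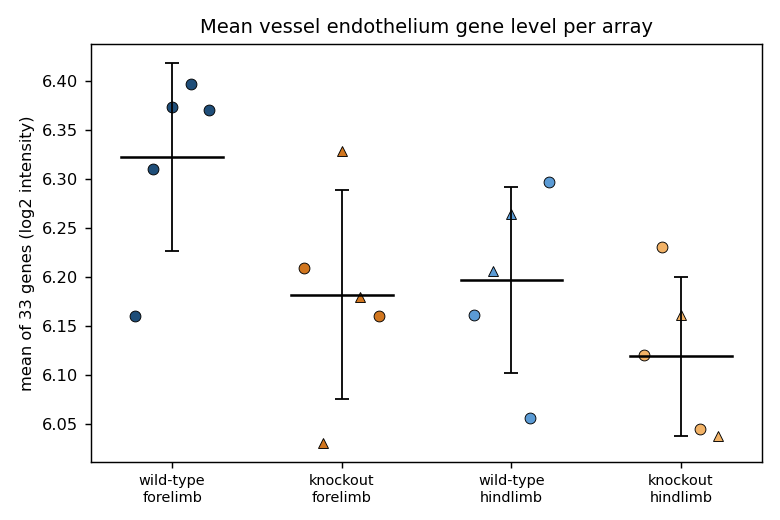
Mean log2 intensity of the 33 vessel genes on each array, in 4 groups of 5 (circles male, triangles female embryos; lines and bars are the group mean and SD). The vertical axis does not start at 0. The genotypes overlap in both limb types, with means of 6.32 and 6.18 in forelimbs and 6.20 and 6.12 in hindlimbs.

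Part of the vessel genes shared their deviations from array to array within a group. On knockout forelimb replicate 2, 31 of the 33 lay below their group mean, against 57.6% of all genes, and this array had the lowest median of all 20 (5.37 log2 over all genes). On wild-type forelimb replicate 1 it was 29, against 45.7% of all genes, and on wild-type hindlimb replicate 9 it was 28, against 49.1%. On knockout forelimb replicate 3, 4 of the 33 lay below, against 45.4% of all genes. Cdh5 and Emcn were on the same side of their group mean as the average of the other 32 genes on 19 of 20 arrays, Tie1 and Rasip1 on 18, and Pecam1, Cd34, Kdr, Flt1, Sox18, Plvap and Cd93 on 17. For 12 of the 33 genes the count was 8 to 12 of 20, near an even split: Aplnr, Sox17 and S1pr1 (12), Icam2, Apln, Ecscr and Nos3 (11), Gpihbp1 and Egfl7 (10), Clec14a and Notch4 (9) and Tal1 (8). Among these, Sox17, Nos3, Gpihbp1, Notch4 and Tal1 had mean levels below that of the median gene. So did Angpt2 and Dll4, with counts of 16 and 13, and the part of the level was not tested. The called genes thus differed in this count, Emcn at 19 and Tek at 16 arrays and Aplnr and Clec14a at 12 and 9. The median of the 33 genes was 15.

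**Figure D4:**
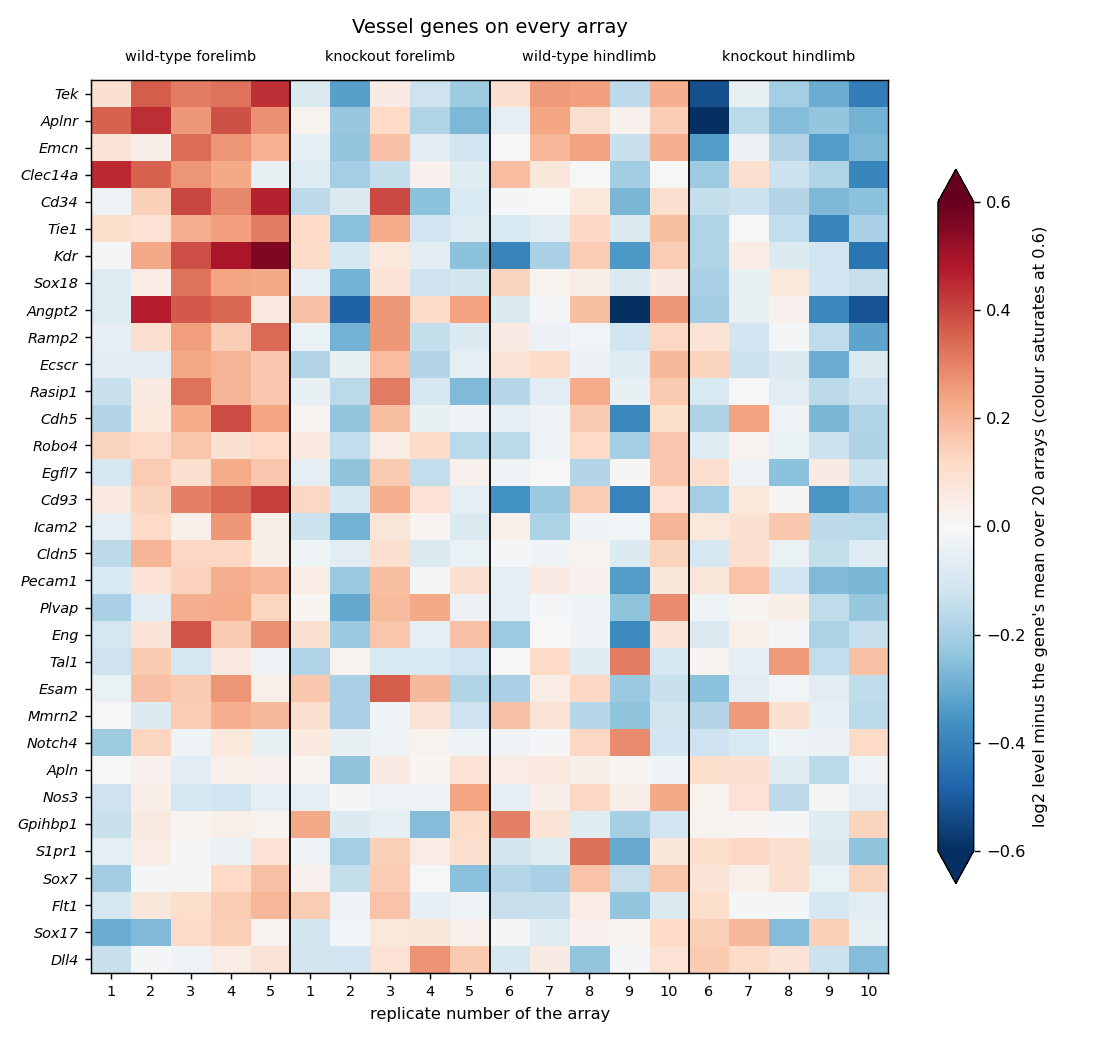
Level of each of the 33 vessel genes (rows) on each of the 20 arrays (columns, in 4 groups), as the log2 level minus the gene's mean over all arrays; red is higher, blue lower, and the colour saturates at 0.6. The columns of knockout forelimb replicate 2, wild-type hindlimb replicate 9 and knockout hindlimb replicates 9 and 10 are blue for most genes. The Tek and Aplnr rows are blue on most knockout arrays.

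Each gene was also expressed relative to the mean of the other 32 vessel genes on the same array, a scale on which only differences between arrays can be read, since each probe set has its own brightness. Aplnr then lay between 1.04 and 1.36 log2 above that mean in wild-type forelimbs and between 0.72 and 0.97 in knockout forelimbs, and between 0.94 and 1.19 in wild-type hindlimbs and 0.33 and 0.88 in knockout hindlimbs. Tek lay between 0.87 and 1.01 in wild-type forelimbs and 0.56 and 0.65 in knockout forelimbs, and between 0.72 and 0.99 in wild-type hindlimbs and 0.28 and 0.66 in knockout hindlimbs. For both genes 10 of 10 knockout arrays were below the wild-type range of their limb type, with mean differences of -0.33 for Aplnr and -0.34 for Tek. Emcn was below on 5 of 10 arrays (mean difference -0.19) and Clec14a on 3 of 10 (mean difference -0.15). Of the genes not called, Tie1 was below on 6 arrays and Cd34, Sox18 and Ramp2 on 5 each. Sox7 and Flt1 lay above the wild-type range on 8 and 7 arrays. The share over all genes was not computed on this scale. The mean of the 33 genes differed by -0.11 between genotypes, so a gene with no difference of its own lies about that much higher in the knockouts on this scale, and no rise is read from it.

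Within the forelimbs, 2 of the 33 genes fell, Aplnr by 0.45 log2 (SE 0.0916, adjusted p = 0.0134) and Tek by 0.45 (SE 0.0959, adjusted p = 0.0189), where 1.03% of all genes fell. Both had all 5 knockout forelimbs below all 5 wild-type forelimbs, which 1.72% of all genes had. With the muscle mean as a covariate neither passed, Aplnr differing by -0.33 (adjusted p = 0.489) and Tek by -0.25 (adjusted p = 0.708). That mean ran from 7.68 to 8.15 log2 in wild-type and 7.35 to 7.74 in knockout forelimbs. With so little overlap, that fit can hardly separate genotype from muscle in forelimbs. On the male arrays Aplnr and Tek differed by -0.47 and -0.46 without passing (adjusted p = 0.278 and 0.315). Clec14a differed by -0.34 (adjusted p = 0.0736) and Kdr by -0.38 (adjusted p = 0.150). The forelimb call of Tek was lost without replicate 3, 4 or 5 of the wild-type forelimbs or 2 or 4 of the knockout forelimbs, with adjusted p up to 0.0709, while without wild-type forelimb replicate 1 4 vessel genes were called.

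Within the hindlimbs, 0 of the 33 genes passed in limma, where 0.226% of all genes fell, and at an unadjusted p under 0.05 there were 4 (Emcn, Tek, Tie1 and Aplnr), against 5.75% of all genes. The sizes were -0.41 for Aplnr (adjusted p = 0.0681), -0.43 for Tek (adjusted p = 0.0761) and -0.33 for Emcn (adjusted p = 0.184). Aplnr had all knockout hindlimbs below all wild-type hindlimbs, as 0.903% of all genes did. Without wild-type hindlimb replicate 9, Tek passed (adjusted p = 0.0128), without knockout forelimb replicate 3, which enters through the shared spread, Aplnr passed (adjusted p = 0.0468), and without knockout hindlimb replicate 7 both did.

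The difference between the genotype effects of the limb types was tested as an interaction. It passed for 0 of the 33 genes in limma, against 0.0201% of all genes, and 0 of 33 had an unadjusted p under 0.05, against 3.63% of all. The interval for Aplnr ran from -0.23 to 0.30 and its estimate was 0.03. Kdr had the lowest unadjusted p (0.0523), with a genotype effect of -0.38 in forelimbs and -0.03 in hindlimbs, a difference of 0.35.

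The limb types themselves differed among wild-type embryos, a comparison that uses the same wild-type arrays as the genotype comparisons. Kdr, the main VEGF receptor, measured 6.89, 7.12, 7.28, 7.39 and 7.45 log2 in wild-type forelimbs and 6.49, 6.70, 7.05, 6.55 and 7.05 in wild-type hindlimbs. Cd93, a surface glycoprotein of endothelium, measured 7.35, 7.42, 7.59, 7.63 and 7.70 in the forelimbs and 6.93, 7.06, 7.43, 6.89 and 7.37 in the hindlimbs. For both, 3 of 5 hindlimbs lay below all forelimbs and replicates 8 and 10 overlapped them. Kdr was lower by -0.46 (SE 0.121, adjusted p = 0.0384) and Cd93 by -0.40 (SE 0.108, adjusted p = 0.0429), and they were the 2 of 33 genes past the threshold, where 2.49% of all genes were lower.

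The hindlimb mean was lower for 27 of the 33 genes in wild type, against 44.3% of all genes. Aplnr was the only one of the 33 with no overlap between wild-type limb types, all 5 hindlimbs being lower, as for 3.2% of all genes, and its difference was -0.25 (adjusted p = 0.149). Both calls depended on single arrays: Kdr and Cd93 lost theirs without wild-type forelimb replicate 3, 4 or 5 or wild-type hindlimb replicate 6, 7 or 9, Cd93 also without knockout forelimb replicate 1, and the adjusted p reached 0.133 for Kdr and 0.153 for Cd93. In the knockouts 0 of 33 genes passed in limma, against 0.441% of all genes lower, and 1 (Aplnr, -0.22) had an unadjusted p under 0.05, against 9.85% of all.

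Markers of other cells differed between wild-type limb types as well. Of 16 skeletal muscle markers 15 were called lower in wild-type hindlimbs, against 2.49% of all genes. The mean of the muscle markers ran from 7.68 to 8.15 log2 in the forelimbs and from 6.97 to 7.43 in the hindlimbs. Of 12 pericyte and smooth muscle markers 3 were called lower (Abcc9, Acta2 and Rgs5), and of 12 macrophage markers 3, beside the same 2.49% of all genes. With the muscle mean as a covariate the differences of Kdr and Cd93 were 0.07 and 0.03, neither past the threshold. Since the muscle mean did not overlap between these limb types, that fit cannot separate limb type from muscle.

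Other genes of the same pathways were examined beside the 33 in the genotype comparison over both limb types. There 1.57% of all genes fell and 0.466% rose, and at an unadjusted p under 0.05 8.36% were lower and 6.33% higher. Of 10 other VEGF and angiopoietin pathway genes, Nrp2, a co-receptor for VEGF and semaphorins, fell by 0.55 log2 (SE 0.0624, adjusted p = 1.22e-05), with 10 of 10 knockout arrays below the wild-type range. Vegfd, a ligand known for lymphatic growth, rose by 0.54 (SE 0.119, adjusted p = 0.0171), with 7 of 10 knockout arrays above it. In limma 0 of 12 other Notch pathway genes passed, and the 2 with an unadjusted p under 0.05, Heyl and Notch2, differed by -0.11 and -0.21. The list medians were -0.02 and -0.01, but the VEGF list held genes of both directions: 6 of its 10 had an unadjusted p under 0.05, 4 lower (Nrp2, Nrp1, Flt4 and Angpt1) and 2 higher (Vegfd and Vegfa).

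Of 12 other endothelial transcription factors, 2 fell. Hhex, a homeobox factor of early endothelium and other tissues, had group means of 5.09 ± 0.0668 and 4.67 ± 0.170 log2 in wild-type and knockout forelimbs and 5.11 ± 0.109 and 4.72 ± 0.244 in hindlimbs (SD, n = 5), and changed by -0.40 (adjusted p = 0.00194). Lmo2, a bridging partner of TAL1, changed by -0.18 (adjusted p = 0.0255). The Lmo2 call was lost without replicate 3 of the wild-type forelimbs, 7 of the wild-type hindlimbs, 2 or 4 of the knockout forelimbs, or 9 or 10 of the knockout hindlimbs, with adjusted p up to 0.0579.

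Of 22 other endothelial genes, Rhoj fell and Esm1 rose. Esm1 encodes endocan, a proteoglycan of sprouting tip cells, and its group means were 5.19 ± 0.291 and 5.72 ± 0.173 log2 in wild-type and knockout forelimbs and 5.09 ± 0.147 and 5.40 ± 0.219 in hindlimbs (SD, n = 5). It changed by 0.41 (SE 0.0877, adjusted p = 0.0126), against the direction of the 4 vessel genes, and 5 of 10 knockout arrays lay above the wild-type range. Rhoj, enriched in endothelium, changed by -0.25 (adjusted p = 0.0326), a call kept in 8 of 20 fits that left out 1 array (replicate 1 or 4 of the wild-type forelimbs, 6 or 9 of the wild-type hindlimbs, 1, 3 or 5 of the knockout forelimbs, or 7 of the knockout hindlimbs), with adjusted p up to 0.0725. On the male arrays alone Nrp2 passed and Esm1, Lmo2, Rhoj, Hhex and Vegfd did not (adjusted p = 0.322, 0.465, 0.671, 0.0514 and 0.0664). With the muscle mean as a covariate Esm1, Lmo2 and Rhoj did not pass either (adjusted p = 0.218, 0.178 and 0.388), and Rhoj also did not with the Y-linked mean (adjusted p = 0.0763).

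Markers of other cell types were set beside the vessel genes. Over both limb types 51.1% of all genes had lower knockout means, 1.57% fell and 8.36% were lower at an unadjusted p under 0.05. Of 6 lymphatic endothelium markers all had lower means in the knockouts and 1, the lymphatic regulator Prox1, fell (-0.56, adjusted p = 0.00662); the median change was -0.31, and 4 of the 6 were lower at an unadjusted p under 0.05. Flt4 stands in both this list and the VEGF list. The list's mean ran from 5.46 to 5.84 log2 in wild-type and 5.15 to 5.54 in knockout forelimbs, and from 5.24 to 5.57 and 5.09 to 5.28 in hindlimbs. Of 12 macrophage markers 11 had lower means and 2 fell, the mannose receptor Mrc1 (-0.43) and Csf1r (-0.27), while 9 of the 12 were lower at an unadjusted p under 0.05, against 10 of the 33 vessel genes. Prox1, Mrc1 and Csf1r did not pass on the male arrays (adjusted p = 0.343, 0.195 and 0.318) or with the muscle mean as a covariate (0.122, 0.147 and 0.258). The macrophage mean ran from 5.27 to 5.60 in wild-type and 5.14 to 5.44 in knockout forelimbs, and from 5.11 to 5.29 and 5.03 to 5.14 in hindlimbs. The lymphatic mean and the macrophage mean were each on the same side of their group mean as the vessel gene mean on 19 of 20 arrays. Agreement was wide but uneven: 18 arrays for the other endothelial genes and for the other Notch pathway genes. It was 17 for the other VEGF and angiopoietin pathway genes and for pericyte and smooth muscle markers. The other endothelial transcription factors agreed on only 11. Agreement was not limited to vessel lists. It was 15 for skeletal muscle and for Schwann cell and nerve markers, and 14 for epidermis markers. Erythroid and cartilage markers agreed on 12 arrays each, and megakaryocyte and platelet markers on 3. The part of the cells of these lists in the falls of Aplnr, Tek, Emcn and Clec14a was not tested.

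Skeletal muscle markers moved as well: 15 of 16 had lower means, against 51.1% of all genes. Of the 16, 3 fell (Tnnt2 -0.41, Actn2 -0.43, Acta1 -0.36), against 1.57% of all genes. Actn2 and Acta1 did not pass on the male arrays (adjusted p = 0.526 and 0.624). The mean of the muscle markers ran from 7.68 to 8.15 log2 in wild-type and 7.35 to 7.74 in knockout forelimbs, and from 6.97 to 7.43 and 7.08 to 7.43 in hindlimbs. With that mean as a covariate, Aplnr and Tek passed for genotype over both limb types but not in forelimbs. The forelimb genotypes overlapped little in the muscle mean, so the fit can hardly separate genotype from muscle there. Over both limb types Emcn differed by -0.18 (adjusted p = 0.231) and Clec14a by -0.29 (adjusted p = 0.121). Of the pericyte and smooth muscle (12), erythroid (9), megakaryocyte and platelet (5), cartilage (8) and epidermis (8) markers 0 passed in limma, with medians of -0.01, -0.17, -0.01, -0.16 and -0.12 and with 2, 3, 1, 0 and 0 genes at an unadjusted p under 0.05. The genes with the smallest p were Acta2 (-0.21) and Mcam (-0.11) in the first of these lists, Alas2 (-0.42) and Hbb-bh1 (-0.55) in the second, Pf4 (-0.17) and Ppbp (-0.16) in the third, Col11a1 (-0.19) and Acan (-0.23) among the cartilage markers and Epcam (0.15) and Trp63 (-0.12) among the epidermis markers. Of 6 Schwann cell and nerve markers Gap43 (-0.40) and Dcx (-0.40) fell, and Dcx did not pass on the male arrays (adjusted p = 0.0747).

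**Figure D5:**
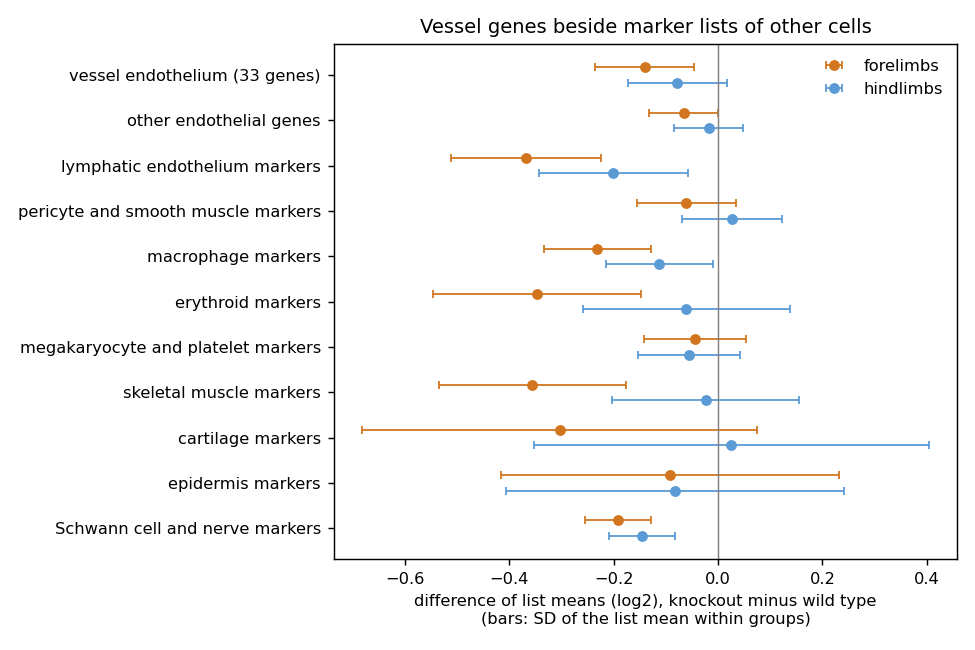
Difference of the list means (log2, knockout minus wild type, horizontal axis) for the 33 vessel genes and 10 other lists, in forelimbs (orange) and hindlimbs (blue); bars are the SD of the list mean within groups. The vessel genes differ by -0.14 in forelimbs and -0.08 in hindlimbs. List means are also lower in both limb types for the lymphatic, macrophage and other endothelial genes. The same holds for erythroid, megakaryocyte and platelet, skeletal muscle, epidermis, and Schwann cell and nerve markers. Means of the pericyte and smooth muscle markers and of the cartilage markers are lower in forelimbs only.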

How the data were processed

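RNA of single limbs was measured on 20 Affymetrix GeneChip 1.0 ST arrays. The deposited intensities are linear, above 0 and RMA values per the submitters' processing notes; the sources used here do not name a software version or a genome build. The number of arrays limits the precision, and no detection calls were used. Of 35512 probe sets, 1 was empty, 21789 had 1 gene symbol, 1621 several and 12101 none; of those with 1 symbol, 21698 were named through Entrez IDs, 3 through accessions and 88 by the platform's name. The probe set of the highest mean was used for each of 19936 genes.

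Log2 values were fitted with limma 3.58.1 (R 4.3.3) as 4 group means over all 20 arrays, followed by eBayes, and p-values were adjusted by Benjamini-Hochberg over all genes, with a threshold of 0.05. Lists are described by counts and medians, and 10 genes of the other lists were not measured, 2 of them (Ccl21a and Gp1bb) because their probe sets name several genes. The fit was tested on simulated data. Of changes of 0.3 log2 it recovered 71.6% over both limb types, 31.3% in forelimbs and 26.9% in hindlimbs. Of changes of 0.6 log2 it recovered 97%, 92.5% and 92.5%. A gene not called within 1 limb type may therefore have changed by about 0.3 log2. Python 3.11.15, numpy 2.4.6, pandas 2.3.3 and matplotlib 3.10.9 made the summaries and figures. All 33 members are named, and of each other list the genes past the threshold (at most 4) or, where none passed, the 2 with the smallest p. Members and lists were chosen with earlier results of these data known. Alternatives changed the scaling, the filter (mean log2 level of at least 5), the probe set rule, the samples in the fit, the weights, the prior, and terms for sex, side, muscle and the shared numbers, and left out each array in turn.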

Additional observations from a re-analysis of the deposited data

Results flagged for a closer look

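Each group of 5 arrays was checked for an array that stood apart from the other 4 by Dixon's criterion (gap over range above 0.71) for the 33 vessel genes and their mean, 136 groups in all. Chance flags about 5 in 100 such groups, and 7 were found here. Angpt2 was low on knockout forelimb replicate 2, at 4.24 log2. On the same array Apln was low, at 6.15, and Apln was also low on wild-type forelimb replicate 3, at 6.32. Aplnr was low on knockout hindlimb replicate 6, at 6.44, which lies on the side of its fall in the knockouts; without that array Aplnr still passed over both limb types. Cd34 was high on knockout forelimb replicate 3, at 8.32. Gpihbp1 was low on wild-type forelimb replicate 1, at 4.99, and Nos3 was high on knockout forelimb replicate 5, at 5.39. No cause of these values was tested.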

How the results depend on the processing

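Of the 4 vessel genes that fell over both limb types, Aplnr and Tek kept their call in 12 of 13 alternative settings (all but the male arrays), Emcn in 11 and Clec14a in 9, and leaving out 1 array gave 3 to 6 vessel genes called. The count of 4 became 0 on the male arrays alone and 2 with the muscle mean as a covariate. In forelimbs the count of 2 became 0 under each of these 2 settings, and leaving out 1 array gave 1 to 4. The muscle mean overlapped little between the forelimb genotypes, so the muscle covariate can hardly separate genotype from muscle there. In hindlimbs the count of 0 became 1 with each array centred on its median, with limbs sharing a number as a random block and with the muscle covariate, and 2 with quantile normalization, with the filter on dim genes, with array weights and with a trend in the prior; leaving out 1 array gave 0 to 2. Between wild-type limb types the count of 2 became 1 with the random block and with the Y-linked covariate, and 0 on the male arrays, with the muscle covariate and with only the compared groups in the fit; leaving out 1 array gave 0 to 3. With the muscle covariate the limb differences of Kdr and Cd93 were 0.0652 and 0.0268, neither past the threshold. The muscle mean did not overlap between wild-type limb types, so this fit cannot separate limb type from muscle, and no change of direction is read from it. The interaction and the limb comparison in knockouts gave 0 to 0 when 1 array was left out. The difference in the mean of the 33 genes ran from -0.13 to -0.09 over both limb types, -0.18 to -0.10 in forelimbs, -0.11 to -0.05 in hindlimbs, 0.02 to 0.10 for the interaction, -0.17 to -0.09 between wild-type limb types and -0.10 to -0.03 between knockout ones. Over all genes the count of 406 became 651 with the random block, 67 on the male arrays, 131 with the muscle covariate and 768 with array weights. The numbers shared in the labels were not taken as pairs, and the labels do not say which limbs share an embryo. Between limbs of different groups with the same side and number, 9 of 30 pairs had deviations that correlated above 0.1 (range -0.31 to 0.40). Of these 9, 5 were among the 6 pairs of right limbs numbered 3. Most pairs joined a wild-type with a knockout limb, and left limbs were not compared with right ones. The count therefore cannot settle whether limbs shared an embryo. With the replicate block 4 vessel genes and 393 genes were called. The causes of these shifts were not tested.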
